A study of Mus musculus with 4 samples.

Results

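The genes described here encode enzymes that write or erase histone marks and the subunits of the complexes that move nucleosomes. They were chosen by name from the deposited expression table: every Kdm, Hdac, Setd (Setdb included), Smarc, Kat and Prmt gene, Chd1 to Chd9, Ezh1, Ezh2, Suz12, Eed, Ep300 and Crebbp. This gave 83 of the 23847 rows, of which 82 are protein coding and 1, Smarca5-ps, is a pseudogene. The rule uses gene names and no measured value, but it was set with earlier results of these data known.

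RNA was taken at postnatal day 21 from ventricles of male mice on a C57BL/6 background. In 2 libraries the mice overexpressed Cdk8 in a cardiac-specific manner (Cdk8Tg), and the other 2 came from wild-type mice (WT). The sources used here give neither the promoter that drives the transgene nor its founder line, and do not say whether a library holds 1 animal or a pool. Levels are given in FPKM, a read measure per length of transcript and per size of library that the authors made from polyadenylated RNA.

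Histone acetyltransferases and deacetylases add and remove acetyl groups on lysines, lysine methyltransferases and demethylases do the same for methyl groups, and arginine methyltransferases act on arginines. Remodellers of the SWI/SNF (BAF), ISWI and CHD families use ATP to slide or evict nucleosomes, and Polycomb repressive complex PRC2 methylates lysine 27 of histone H3. Several members also act on proteins other than histones. In the mouse heart, class IIa deacetylases bind the transcription factor Mef2 and restrain hypertrophic growth, and BAF subunits are needed for heart development. Cdk8 is the kinase of a module of Mediator, the complex that connects transcription factors with RNA polymerase II.

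Cdk8 itself had 7309 and 8122 FPKM in Cdk8Tg, against 7.89 and 9.86 FPKM in WT. A rough estimate of depth, from the smallest FPKM steps, was 11.9 and 11.5 M (mega) fragments in Cdk8Tg and 13.4 and 12.4 M in WT. It holds only if each library was scaled to its own total. The ventricle is a mixture of cells, so a lower level of a gene in its cells and fewer cells that express it cannot be told apart. Of 6 cardiomyocyte markers 5 were lower in Cdk8Tg, and the list summed to 23550 and 21300 FPKM in Cdk8Tg, against 34940 and 32940 FPKM in WT. Of 7 fibroblast markers 6 were higher, with sums of 866 and 1113 FPKM in Cdk8Tg and of 680 and 654 FPKM in WT. With limma, none of 6 endothelial (0 at an unadjusted p under 0.05), 5 smooth muscle and pericyte (1) and 7 proliferating cell (1) markers passed, and none was marked in the authors' deposited table. Of 4 atrial muscle markers only Nppa, which makes up most of their sum, passed, as higher, at 780 and 2072 FPKM in Cdk8Tg and 395 and 199 FPKM in WT. The others stood apart by library: Myl7 had 8.51 and 52.7 FPKM in Cdk8Tg and 136 and 11.6 FPKM in WT, Sln had 0.218 and 9.93 FPKM in Cdk8Tg and 43.8 and 2.08 FPKM in WT, and Myl4 had 72.5 and 281 FPKM in Cdk8Tg and 94.3 and 11.7 FPKM in WT. Cdk8Tg 2 and WT 1 were thus the libraries with more of these transcripts in their groups. Of 3 brown fat markers only Cox8b passed, as lower, at 973 and 793 FPKM in Cdk8Tg and 1579 and 1684 FPKM in WT. Ucp1 had 0 and 10.7 FPKM in Cdk8Tg 1 and 2, and 0 FPKM in both WT libraries. Cidea had 14.8 and 24.8 FPKM in Cdk8Tg and 17.6 and 16.9 FPKM in WT. Csf1r alone of 5 leukocyte markers tested was lower, with list sums of 81.5 and 101 FPKM in Cdk8Tg and 123 and 112 FPKM in WT. The part of cell composition in the results below was not tested.

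Most chromatin enzymes did not pass the test. Of the 83 members, 78 reached a mean of 1 FPKM over the 4 libraries and were tested with limma on log2(FPKM + 1), with Benjamini-Hochberg adjustment over all 11888 rows tested. Of these, 16 rose, 1 fell and 61 did not pass an adjusted p of 0.05. The 16 that rose are 20.5% of the members tested, where 16.9% of all tested genes rose, and the 1 that fell is 1.28%, where 7.98% of all tested genes fell. On the deposited scale, the share that rose is thus close to that of genes in general. An unadjusted p under 0.05 was found for 28 members, and for 41.6% of all tested genes. The 16 rises became 8 without Cdk8Tg 1, 5 without Cdk8Tg 2, 3 without WT 1 and 1 without WT 2, while the 2009 rises of all genes became 1531, 702, 359 and 145.

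The spread of the members' changes was narrow on the low side. The median log2 change, Cdk8Tg minus WT, was 0.14 for the members and 0.13 for all tested genes. The middle 50% of members lay between 0.02 and 0.28, and the middle 50% of all tested genes between -0.09 and 0.32. A change smaller than 0.25 on the log2 scale was seen for 51 members (65.4%), against 52.0% of all tested genes. Changes of at least 1 on this scale were found for 3 members (3.85%), Hdac6, Prmt2 and Chd6, and for 3.89% of all tested genes. The libraries of the groups did not overlap, with Cdk8Tg higher, for 43 of the 78 members tested and for 49.2% of all tested genes. With Cdk8Tg lower, they did not overlap for 5 of the 78 members and for 21.1% of all tested genes. These comparisons with all genes are descriptions, with no test.

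**Figure D1:**
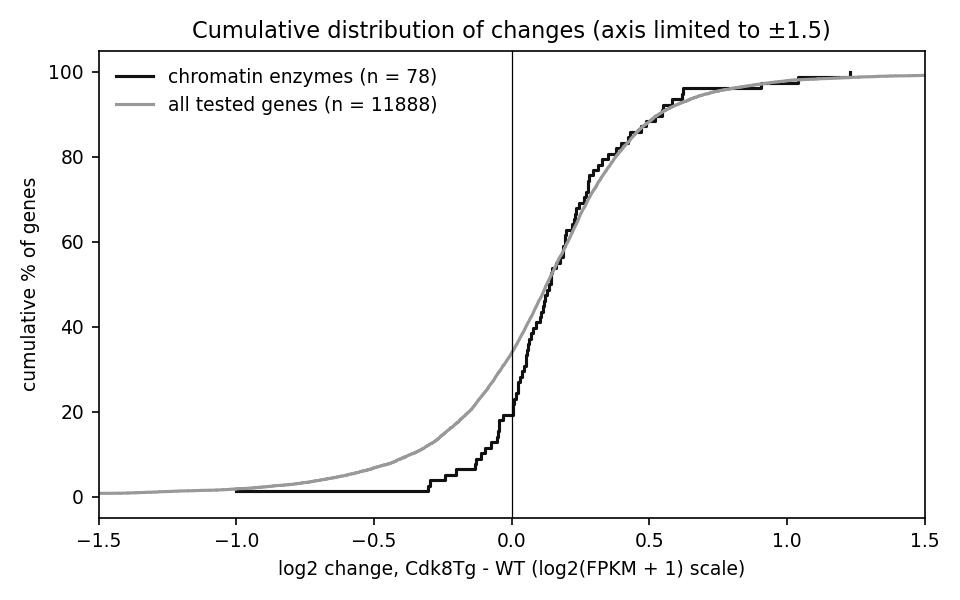
Cumulative percentage of genes (vertical axis) up to each log2 change on the log2(FPKM + 1) scale (horizontal axis, Cdk8Tg minus WT) for the 78 chromatin enzymes tested (black) and all 11888 genes tested (grey). The medians, 0.14 and 0.13, nearly coincide, and the black line lies below the grey one on the left side because only 1 member lies below -0.5.

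How many members rose depended on how the libraries were scaled to each other, because the median of all genes was not at 0 as deposited. Median-of-ratios scaling, which brought the median of all tested genes to 0.00, left 10 members higher (12.8%, against 7.96% of all genes) and 2 lower (2.56%, against 11.7%). Quantile normalization gave 6 higher (7.69%, against 8.51% of all genes) and 2 lower (2.56%, against 8.76%). Scaling to equal FPKM sums gave 37 higher (47.4%, against 41.2% of all genes) and 1 lower (1.28%, against 5.49%). The authors' deposited table holds their own test of the groups. At a q-value of 0.05 it marked 5 members higher (6.41%, against 5.53% of all genes) and 1 lower (1.28%, against 8.43%). Chd3, Hdac6, Kdm3a, Prmt2 and Setd7 rose and Chd6 fell on all 4 scales, the deposited one included. Median-of-ratios and equal-sum scaling multiply whole libraries and move all genes together, so large changes tend to keep their calls there by construction. Quantile normalization does not multiply whole libraries. Under it, Smarca1 (log2 change 0.62 as deposited) lost its call (limma adjusted p = 0.0701), and Kat2b (0.40 as deposited) kept it (0.0489).

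**Figure D2:**
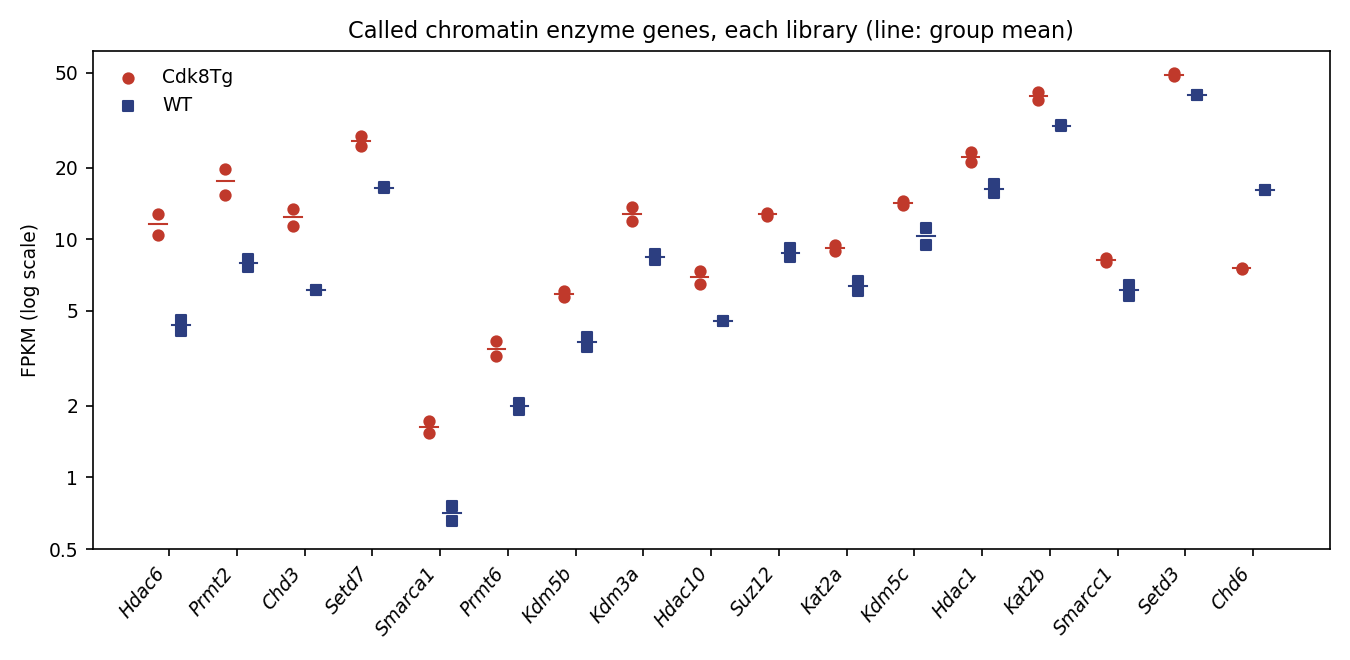
FPKM on a log scale (vertical axis) of the 17 called members in each library, with red circles for Cdk8Tg, blue squares for WT and a line at each group mean. The red circles lie above the blue squares for 16 genes, from Hdac6 (11.6 against 4.35 FPKM on average) to Setd3 (49.2 against 40.4 FPKM), and below them for Chd6 (7.55 against 16.1 FPKM).

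The 3 members whose log2 change on the log2(FPKM + 1) scale was at least 1 in size have promoter windows in RefSeq (GRCm38.p6), and these are shown to give the sequence around the start of each gene. By fold of the mean FPKM, Smarca1 (2.29-fold) lies above Prmt2 (2.20-fold). Each window runs 5′ to 3′ on the gene's strand, which is the minus strand for all 3, from 250 bases before the start to 50 bases after it. Capitals mark matches to the CCAAT box (CCAAT) and to the GC box (GGGCGG) on either strand. The windows are chrX:7947840-7948139 for Hdac6, chr10:76237816-76238115 for Prmt2 and chr2:161109037-161109336 for Chd6.
Hdac6: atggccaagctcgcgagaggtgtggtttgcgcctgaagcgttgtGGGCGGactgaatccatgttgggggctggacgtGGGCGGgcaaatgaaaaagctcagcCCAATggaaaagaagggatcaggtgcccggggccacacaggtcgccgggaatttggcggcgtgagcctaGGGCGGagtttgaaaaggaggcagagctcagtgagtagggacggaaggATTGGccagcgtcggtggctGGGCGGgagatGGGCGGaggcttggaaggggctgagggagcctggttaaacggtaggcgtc
Prmt2: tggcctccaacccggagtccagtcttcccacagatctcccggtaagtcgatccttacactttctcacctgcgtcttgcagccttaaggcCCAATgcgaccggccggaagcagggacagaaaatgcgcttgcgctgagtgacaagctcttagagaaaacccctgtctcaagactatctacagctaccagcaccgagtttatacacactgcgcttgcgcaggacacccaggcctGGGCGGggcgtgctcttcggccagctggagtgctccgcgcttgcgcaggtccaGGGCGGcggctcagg
Chd6: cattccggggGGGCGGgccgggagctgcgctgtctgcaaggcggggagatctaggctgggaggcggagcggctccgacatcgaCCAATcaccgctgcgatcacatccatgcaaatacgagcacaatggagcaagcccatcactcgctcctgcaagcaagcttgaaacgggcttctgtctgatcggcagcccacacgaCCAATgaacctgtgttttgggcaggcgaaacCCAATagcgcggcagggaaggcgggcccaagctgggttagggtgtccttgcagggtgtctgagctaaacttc
The Hdac6 window held 5 GC boxes, as many or more than which were found in 2.71% of all 32851 windows of the same length, and 2 CCAAT boxes (11.7% of windows held as many or more). The Prmt2 window held 2 GC boxes (19.5%) and 1 CCAAT box (37.4%). The Chd6 window, of the member that fell, held 1 GC box (35.7%) and 3 CCAAT boxes (3.37%). A match in letters does not show that a factor binds there.

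RefSeq windows were found for 67 members (89 windows). A GC box stood in 64.0% of them and in 35.7% of all windows, and a CCAAT box in 44.9% of them and in 37.4% of all windows. All windows were taken whether or not their genes were expressed here, whereas 78 of the 83 members passed the expression filter. These shares are thus not set against those of expressed genes, and the differences were not tested. The E-box CACGTG stood in 6 of 89 member windows (6.74%) and in 7.15% of all, and the ETS core CCGGAAGT in 4 of 89 (4.49%) and in 3.89% of all. The CRE TGACGTCA stood in 1.12% of member windows and in 1.79% of all, and the E2F core TTTCGCGC stood in 0 of 89 member windows and in 0.323% of all. Among the 17 windows of 13 members that rose, 10 held a GC box and 9 a CCAAT box. All motifs were searched on both strands, and matches of different motifs may overlap.

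All 11 deacetylases were tested and 3 rose, with a median log2 change of 0.16. Here and below, the rises in each family and list are small counts, where 16.9% of all tested genes rose. They were not tested against that share. Hdac6, a mainly cytoplasmic class IIb enzyme that deacetylates tubulin, had the largest rise of all members tested. It stood at 10.4 and 12.7 FPKM in Cdk8Tg, against 4.12 and 4.57 FPKM in WT. The lower Cdk8Tg library was thus more than 5 FPKM above the higher WT library. The means were 11.6 ± 1.63 and 4.35 ± 0.319 FPKM (SD, n = 2 each), a 2.66-fold difference and a log2 change of 1.23 ± 0.12 (SE; limma adjusted p = 0.0058). Hdac6 lies on chromosome X from 7930120 to 7947889 (GRCm38, GENCODE vM21).

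Hdac10, the other class IIb member, known as a polyamine deacetylase, rose as well. It had 6.52 and 7.38 FPKM in Cdk8Tg libraries, against 4.52 and 4.56 FPKM in WT libraries, a log2 change of 0.52 ± 0.10 (limma adjusted p = 0.0227, and 0.0545 after quantile normalization). Hdac1, a class I enzyme of the SIN3, NuRD and CoREST corepressors, had 21.1 and 23.3 FPKM in Cdk8Tg and 17.1 and 15.6 FPKM in WT (log2 change 0.42 ± 0.10, limma adjusted p = 0.0317). Its rise did not pass after median-of-ratios scaling (limma adjusted p = 0.0819), and 40.0% of its stretches of 31 bases also occur in other genes, most often Gm10093, so reads may be split between them. Hdac2, its close paralog and the most abundant deacetylase, had 40.2 and 40.7 FPKM in Cdk8Tg and 36.8 and 35.3 FPKM in WT, and its log2 change of 0.16 did not pass (limma adjusted p = 0.170). With 1 library left out, Hdac6 kept its call in all 4 fits (limma adjusted p from 0.00707 to 0.0458). Without Cdk8Tg 2, WT 1 or WT 2, the calls were lost for Hdac10 (0.0842 to 0.116) and Hdac1 (0.0935 to 0.164).

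The 4 class IIa deacetylases, which carry signals between cytoplasm and nucleus and bind Mef2, did not pass in limma (0 of 4 also at an unadjusted p under 0.05 and in the authors' deposited table), and the libraries of the groups overlapped for each. Hdac4 had the largest change among deacetylases that did not pass, at 3.83 and 2.59 FPKM in Cdk8Tg and 3.48 and 4.85 FPKM in WT (log2 change -0.30 ± 0.20, limma adjusted p = 0.306). Its replicates also lay furthest apart of all members, by 0.43 on the log2 scale in Cdk8Tg and 0.38 in WT, where the median member differed by 0.10 and 0.09. Hdac5, the most abundant of the class, had 28.9 and 24.2 FPKM in Cdk8Tg and 23.4 and 24.4 FPKM in WT.

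Of 8 arginine methyltransferases 7 were tested and 2 rose, and the median log2 change was 0.26. Prmt2, a type I enzyme (these make asymmetric dimethylarginine) with an SH3 domain, had 15.3 and 19.7 FPKM in Cdk8Tg, against 8.23 and 7.68 FPKM in WT. The Cdk8Tg libraries lay closer to each other than either did to WT. The means were 17.5 ± 3.14 and 7.95 ± 0.386 FPKM (SD, n = 2 each), a 2.20-fold difference and a log2 change of 1.04 ± 0.13 (limma adjusted p = 0.0094). Prmt2 lies on chromosome 10 from 76207222 to 76237865. Prmt6, which methylates arginine 2 of histone H3, had 3.73 and 3.23 FPKM in Cdk8Tg and 1.93 and 2.05 FPKM in WT (log2 change 0.58 ± 0.12, limma adjusted p = 0.0251, and 0.0786 after quantile normalization). An exon of Prmt6 overlaps C130013H08Rik on the other strand, and the strand setting used in counting is not known.

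Prmt1, the main type I enzyme and the second most abundant member of all, overlapped between the groups. It had 55.6 and 51.7 FPKM in Cdk8Tg and 53.4 and 45.9 FPKM in WT, and its log2 change of 0.11 turned to -0.03 after median-of-ratios scaling. Prmt10, also called Prmt9, had the largest change that did not pass, at 8.80 and 7.93 FPKM in Cdk8Tg and 5.89 and 6.81 FPKM in WT (log2 change 0.35 ± 0.11, limma adjusted p = 0.0691). Prmt2 lost its call without WT 2 (limma adjusted p = 0.0718). Prmt6 lost its call without Cdk8Tg 1 (0.0633), WT 1 (0.112) or WT 2 (0.112).

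Of 17 lysine demethylases 16 were tested and 3 rose, and the median log2 change was 0.12. The strongest rises were those of Kdm5b, which removes methyl groups from lysine 4 of histone H3, and Kdm3a, which removes them from lysine 9 and is known as a hypoxia-inducible gene. Kdm5b had 6.08 and 5.72 FPKM in Cdk8Tg, against 3.90 and 3.53 FPKM in WT (log2 change 0.55 ± 0.10, limma adjusted p = 0.0199, and 0.0507 after quantile normalization). Kdm3a had 11.975 and 13.7 FPKM in Cdk8Tg, against 8.20 and 8.69 FPKM in WT (log2 change 0.55 ± 0.10, limma adjusted p = 0.0195). Kdm5c, an X-linked paralog of Kdm5b, had 14.5 and 13.9 FPKM in Cdk8Tg and 11.2 and 9.49 FPKM in WT (log2 change 0.43 ± 0.10, limma adjusted p = 0.0378), and did not pass after median-of-ratios scaling (0.103).

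Both Kdm5 genes belong to the 6 demethylases of lysine 4 of histone H3, of which 2 rose and 4 did not pass. Kdm1a, which acts on the same lysine within CoREST and is the most abundant demethylase, stood just outside the threshold. It had 15.8 and 14.7 FPKM in Cdk8Tg and 12.4 and 11.4 FPKM in WT (log2 change 0.33 ± 0.09, limma adjusted p = 0.0508). Of the 5 tested demethylases of lysine 9, only Kdm3a passed, and the 4 others had log2 changes from 0.04 to 0.14. Kdm6a and Kdm6b, which act on lysine 27, and Kdm2a and Kdm2b, which act on lysine 36, did not pass in limma. None of these 4 had an unadjusted p under 0.05 or was marked in the authors' deposited table. Kdm3a lost its call without Cdk8Tg 2, WT 1 or WT 2 (limma adjusted p from 0.0700 to 0.0989), and Kdm5b (0.0580 to 0.116) and Kdm5c (0.0741 to 0.174) lost theirs with any 1 of the 4 libraries left out.

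Of 11 SET-domain methyltransferases 10 were tested and 2 rose, and the median log2 change was 0.05. Setd7, which adds a single methyl group to lysine 4 of histone H3 and also methylates other proteins, had 24.7 and 27.2 FPKM in Cdk8Tg, against 16.6 and 16.4 FPKM in WT. The means were 25.9 ± 1.72 and 16.5 ± 0.162 FPKM (SD, n = 2 each), a 1.57-fold difference and a log2 change of 0.62 ± 0.09 (limma adjusted p = 0.0109). Setd7 lies on chromosome 3 from 51515319 to 51560879 on the minus strand, where an exon overlaps 5031434O11Rik on the other strand. Setd3, known to methylate a histidine of actin, had 48.4 and 49.9 FPKM in Cdk8Tg and 40.3 and 40.4 FPKM in WT (log2 change 0.28 ± 0.08, limma adjusted p = 0.0492). That change is small, it became 0.13 after median-of-ratios scaling (limma adjusted p = 0.261), and 21.9% of the stretches of 31 bases in Setd3 also occur in other genes, most often Gm14026.

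Setd8, which adds a single methyl group to lysine 20 of histone H4, was the most abundant member of all. It had 60.6 and 67.6 FPKM in Cdk8Tg and 61.0 and 71.9 FPKM in WT, so the groups overlapped (log2 change -0.05 ± 0.11). Setd1b, a lysine 4 methyltransferase, had the largest change of those in the family that did not pass, at 4.76 and 3.81 FPKM in Cdk8Tg and 3.04 and 3.72 FPKM in WT (log2 change 0.27 ± 0.14, limma adjusted p = 0.210). Setd7 lost its call without WT 1 (limma adjusted p = 0.0627) or WT 2 (0.0811). Setd3 lost its call with any 1 of the 4 libraries left out (0.0837 to 0.199).

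All 9 acetyltransferases were tested and 2 rose, and the median log2 change was 0.02. Those that rose were Kat2a and Kat2b, the related GCN5 and PCAF enzymes, which are alternative subunits of coactivator complexes. Kat2a had 9.47 and 8.93 FPKM in Cdk8Tg and 6.08 and 6.66 FPKM in WT (log2 change 0.47 ± 0.09, limma adjusted p = 0.0245). Kat2b, the most abundant of the family, had 38.3 and 41.4 FPKM in Cdk8Tg and 29.9 and 30.1 FPKM in WT (log2 change 0.40 ± 0.08, limma adjusted p = 0.0254). Neither passed after median-of-ratios scaling (limma adjusted p = 0.0674 for Kat2a and 0.0781 for Kat2b), and 14.6% of the stretches of 31 bases in Kat2b also occur in other genes, most often the pseudogene Kat2b-ps. Ep300 and Crebbp, the p300 and CBP coactivators, had log2 changes of 0.02 and 0.01.

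Ep300 had 7.77 and 7.17 FPKM in Cdk8Tg and 6.60 and 8.17 FPKM in WT, and Crebbp had 4.57 and 4.65 FPKM in Cdk8Tg and 4.73 and 4.44 FPKM in WT, so the groups overlapped for both. Of the 5 members of the MYST group none passed in limma (1 had an unadjusted p under 0.05, and the authors' deposited table marks 0), and the largest change was that of Kat6b, at 5.39 and 6.14 FPKM in Cdk8Tg and 4.20 and 4.68 FPKM in WT (log2 change 0.31 ± 0.11, limma adjusted p = 0.0908). Kat2a lost its call with any 1 of the 4 libraries left out (0.0666 to 0.117), and Kat2b without Cdk8Tg 2, WT 1 or WT 2 (0.0850 to 0.130).

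All 4 members of the Polycomb complex PRC2 were tested and 1, the core subunit Suz12, rose. It had 12.955 and 12.5 FPKM in Cdk8Tg, against 9.20 and 8.39 FPKM in WT (log2 change 0.49 ± 0.09, limma adjusted p = 0.0199), and an exon of it overlaps Gm26563 on the other strand. The other core subunit, Eed, had a log2 change of 0.19 (limma adjusted p = 0.193). Of the alternative catalytic subunits, Ezh1, the one known to prevail in resting cells, had 14.2 and 14.3 FPKM in Cdk8Tg and 10.9 and 12.3 FPKM in WT (log2 change 0.28 ± 0.09, limma adjusted p = 0.0833). Ezh2, the one known to prevail in dividing cells, had 2.82 and 2.91 FPKM in Cdk8Tg and 3.29 and 2.86 FPKM in WT (log2 change -0.07 ± 0.11). Suz12 lost its call with any 1 of the 4 libraries left out (limma adjusted p from 0.0594 to 0.117), and its adjusted p was 0.0480 after median-of-ratios scaling and 0.0534, past the threshold, after quantile normalization.

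Of 9 CHD remodellers 8 were tested, 1 rose and 1 fell, and the remaining 6 had log2 changes from 0.01 to 0.19. Chd6, a DNA-dependent ATPase, was the only member that fell. It had 7.59 and 7.52 FPKM in Cdk8Tg, against 16.2 and 16.1 FPKM in WT. Replicates differed by less than 0.1 FPKM in each group, and the Cdk8Tg level was 0.469 times the WT level. The means were 7.55 ± 0.0455 and 16.1 ± 0.0474 FPKM (SD, n = 2 each), a log2 change of -1.001 ± 0.08 (limma adjusted p = 0.0041). The authors' deposited table gives group levels of 8.59 FPKM in Cdk8Tg and 20.5 FPKM in WT for Chd6, at a Cuffdiff q-value of 0.000864. Their log2 ratio, -1.25, has no pseudocount and uses the authors' own group levels, so it is not on the same scale as -1.001. Chd6 lies on chromosome 2 from 160946978 to 161109075.

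Chd3, an ATPase of the NuRD complex, rose to 11.4 and 13.4 FPKM in Cdk8Tg, against 6.11 and 6.15 FPKM in WT. The means were 12.4 ± 1.42 and 6.13 ± 0.0260 FPKM (SD, n = 2 each), a 2.02-fold difference and a log2 change of 0.91 ± 0.11 (limma adjusted p = 0.0076). Chd3 lies on chromosome 11 from 69343273 to 69369406. Chd4, the alternative ATPase of NuRD and the most abundant remodeller of the family, had 32.1 and 30.3 FPKM in Cdk8Tg and 28.1 and 29.3 FPKM in WT. Its log2 change of 0.12 did not pass (limma adjusted p = 0.319) and was -0.03 after median-of-ratios scaling. Chd8, with the largest change of those that did not pass, had 8.92 and 8.602 FPKM in Cdk8Tg and 8.02 and 7.14 FPKM in WT (limma adjusted p = 0.1998). Chd6 kept its call with each library left out (limma adjusted p from 0.00909 to 0.0422), and Chd3 lost it without WT 2 (0.0596).

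Of 14 SMARC remodelling subunits 13 were tested and 2 rose, and the median log2 change was 0.13. Smarca1, an ATPase of the ISWI family, was low in all libraries, with 1.72 and 1.54 FPKM in Cdk8Tg and 0.761 and 0.658 FPKM in WT. It was 2.29-fold higher by mean FPKM, and its log2 change of 0.62 ± 0.14 (limma adjusted p = 0.0298) understates that difference because of the pseudocount. It did not pass after quantile normalization (0.0701). Smarcc1, a core subunit of BAF, had 8.06 and 8.38 FPKM in Cdk8Tg and 6.44 and 5.75 FPKM in WT (log2 change 0.38 ± 0.10, limma adjusted p = 0.0434). It did not pass after median-of-ratios scaling (0.124), and an exon of it overlaps Dhx30 on the other strand.

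The BAF ATPases did not pass in limma (1 of 2 had an unadjusted p under 0.05, and the authors' deposited table marks 0). Smarca2, known as Brm, had the larger change of the pair, at 19.1 and 22.8 FPKM in Cdk8Tg and 16.3 and 17.3 FPKM in WT (log2 change 0.29 ± 0.11, limma adjusted p = 0.103), and Smarca4, known as Brg1, had 13.6 and 12.6 FPKM in Cdk8Tg and 11.3 and 11.4 FPKM in WT (log2 change 0.20 ± 0.09). Smarce1, the most abundant subunit, had 32.6 and 35.5 FPKM in Cdk8Tg and 30.03 and 28.0 FPKM in WT (log2 change 0.22 ± 0.09, limma adjusted p = 0.120). The alternative subunit Smarcd1, picked out after its values were seen, had 9.48 and 9.04 FPKM in Cdk8Tg and 11.1 and 11.2 FPKM in WT, and its log2 change of -0.24 passed only after median-of-ratios scaling (-0.38, limma adjusted p = 0.0373) and quantile normalization (0.0441). The heart-enriched Smarcd3 overlapped between the groups. With any 1 of the 4 libraries left out, Smarca1 (limma adjusted p from 0.0533 to 0.144) and Smarcc1 (0.0953 to 0.202) lost their calls.

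**Figure D3:**
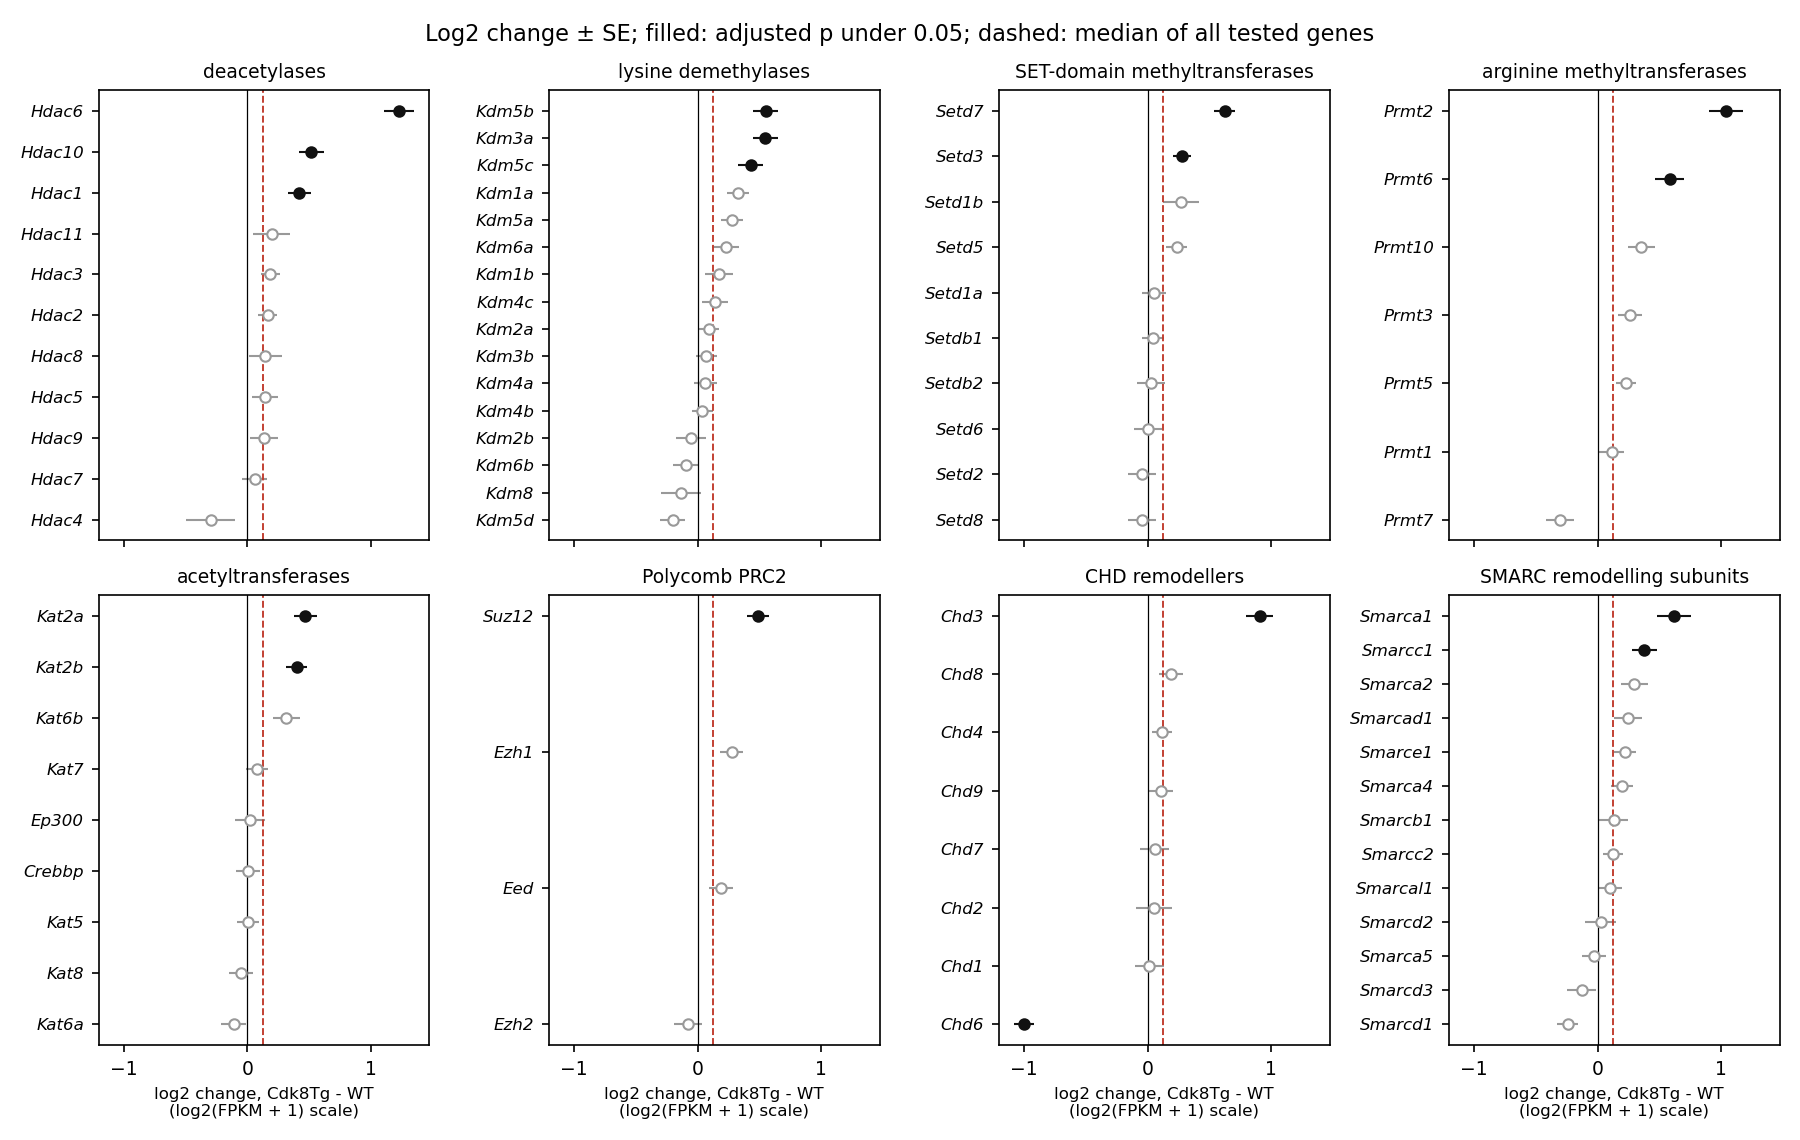
Log2 change ± SE on the log2(FPKM + 1) scale (horizontal axis, Cdk8Tg minus WT) of each of the 78 tested members (rows), in a panel per family, with filled points for an adjusted p under 0.05 and a dashed line at 0.13, the median of all tested genes. Most open points lie near the dashed line, Hdac6, Prmt2 and Chd3 lie furthest to the right, and Chd6 at -1.001 lies furthest to the left.

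The FPKM ratio of related members within a library does not depend on a factor that multiplies the whole library. Over 16 pairs of paralogs, this ratio was higher in both Cdk8Tg libraries than in both WT libraries for 8 pairs, lower for 4, and overlapped for 4. For single genes as deposited, the groups did not overlap for 49.2% of all tested genes as higher and 21.1% as lower. No such share was computed for pairs of other genes, so whether the counts of pairs are unusual was not tested. Chd3 made up the largest shift: its FPKM was 0.355 and 0.442 times that of Chd4 in Cdk8Tg, against 0.217 and 0.210 times in WT, a difference of 0.89 between the mean log2 ratios of FPKM. With 1 FPKM added to each gene, as in the plot of these ratios, that difference was 0.79, and the same 8, 4 and 4 pairs were higher, lower and overlapping. Kdm3a was 1.48 and 1.71 times Kdm3b in Cdk8Tg, against 1.08 and 1.14 times in WT, a difference of 0.52. The Y-linked Kdm5d was 0.314 and 0.303 times its X-linked paralog Kdm5c in Cdk8Tg, against 0.451 and 0.563 times in WT, a difference of -0.71. With 2 libraries against 2, the exact two-sided permutation test cannot give a p below 0.333, and it was 0.333 for each pair that did not overlap (0.444 after Benjamini-Hochberg adjustment over the 16 pairs).

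Other pairs are alternative subunits or close relatives. Ezh1 was 5.06 and 4.92 times Ezh2 in Cdk8Tg, against 3.33 and 4.32 times in WT, a difference of 0.40. Hdac1 was 0.525 and 0.573 times Hdac2 in Cdk8Tg, against 0.464 and 0.443 times in WT, a difference of 0.28. Kat6b was 0.767 and 0.853 times Kat6a in Cdk8Tg, against 0.578 and 0.566 times in WT, a difference of 0.501. The ratio of Setd1b to Setd1a is uncertain, since 51.8% of the stretches of 31 bases in Setd1a also occur in other genes, most often Gm49388. The groups overlapped for Smarca2 over Smarca4, Smarcd3 over Smarcd1, Ep300 over Crebbp and Kat2a over Kat2b, so no difference beyond the spread of the libraries was seen for these.

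**Figure D4:**
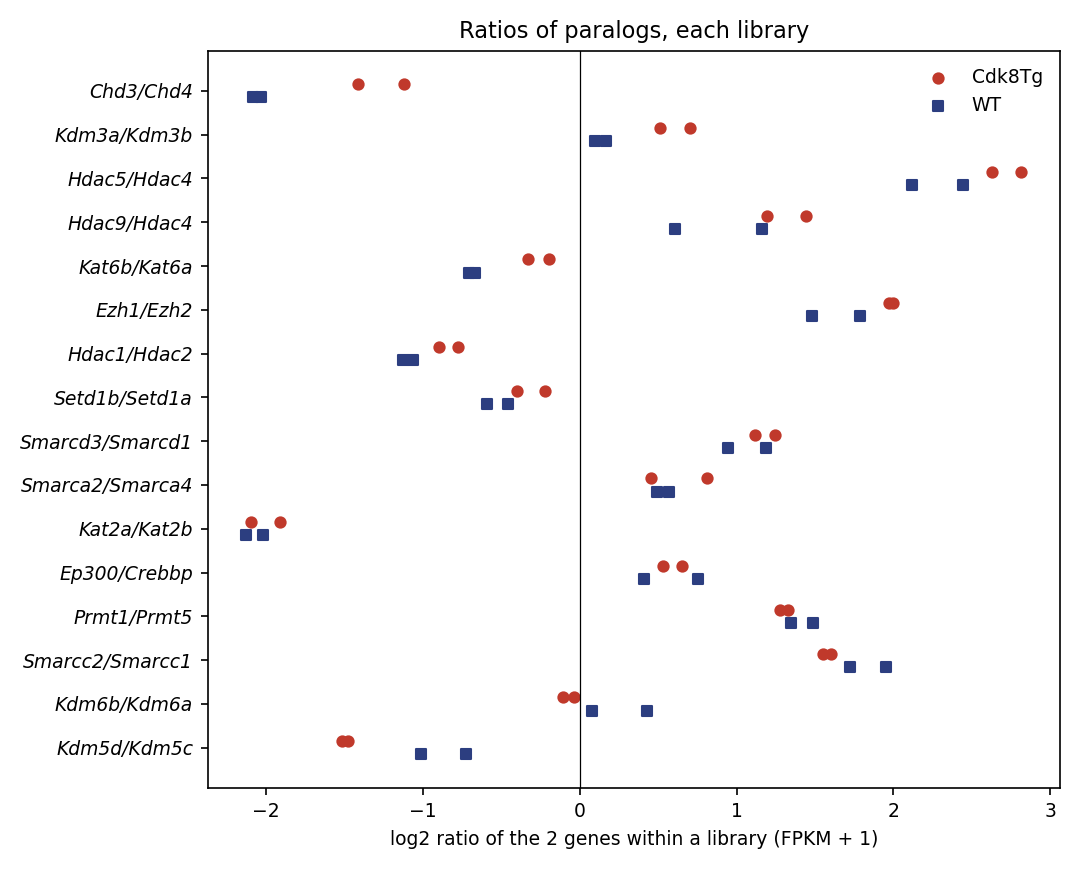
Log2 ratio of FPKM + 1 between the members of 16 paralog pairs (horizontal axis) in each library, with Cdk8Tg as red circles and WT as blue squares below them. The red circles of Chd3/Chd4 lie at -1.42 and -1.12, against -2.04 and -2.08 for the blue squares, and those of Kdm5d/Kdm5c lie at -1.48 and -1.52, against -1.01 and -0.73.

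The position of members on the chromosomes was compared with the calls. Of the 5 tested members on chromosome X, 3 rose (Hdac6, Smarca1 and Kdm5c), and of the 73 tested members elsewhere 13 rose. Among all tested genes 24.9% of those on X and 16.4% of those placed elsewhere rose, so X-linked genes in general were called more often here, without a test of that difference. The Y-linked Kdm5d had 4.55 and 4.21 FPKM in Cdk8Tg, against 5.03 and 5.34 FPKM in WT (log2 change -0.20, limma adjusted p = 0.185). The nearest tested neighbours of Chd6, Hdac6 and Prmt2 did not pass. They lay from 22464 bases (Timm17b, beside Hdac6) to 1822422 bases (Srsf6, beside Chd6) away, and any untested genes between are not covered. The nearest tested neighbours of Chd6, Lpin3 and Srsf6, had log2 changes of 0.23 and 0.16, those of Hdac6, Timm17b and Suv39h1, had 0.09 and 0.17, and those of Prmt2, Zfp280b and Dip2a, had 0.25 and 0.08, with limma adjusted p from 0.216 to 0.57 over these 6. Next to Chd3, Cyb5d1 rose (log2 change 0.53, limma adjusted p = 0.0265) and Trappc1 did not pass (0.35, 0.0557). Both neighbours of Suz12 rose (Utp6, 0.47, limma adjusted p = 0.0362, and Crlf3, 0.40, 0.0301). A neighbour also rose beside Kdm3a (Chmp3, 0.43, limma adjusted p = 0.0366) and Kdm5b (Rabif, 0.33, 0.0462). Neighbours of members that did not pass were called as well, such as Supt16 beside Chd8 (0.38, limma adjusted p = 0.0283) and Me3 beside Eed (-0.46, 0.0173). Whether neighbours were called more often than the 16.9% of all tested genes that rose was not tested.

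Other chromatin genes, in 10 lists of partners and related enzymes, gave counts of the same order. Of 139 measured genes 128 were tested, 18 rose (14.1%, where 16.9% of all tested genes rose) and 1 fell (0.781%, where 7.98% fell), and their median log2 change was 0.15. After median-of-ratios scaling 7 were higher (5.47%, against 7.96% of all genes) and 6 lower (4.69%, against 11.7%), and with equal FPKM sums 63 were higher (49.2%, against 41.2% of all genes) and 0 lower (against 5.49%). These shares were not tested against each other. The Polycomb list, with subunits of PRC1 and partners of PRC2, held 6 of the 18 rises among 22 genes tested. Of these 22, 2 were higher after median-of-ratios scaling and 2 after quantile normalization. Among all tested genes, 16.9% were higher as deposited, 7.96% after median-of-ratios scaling and 8.51% after quantile normalization. The largest changes in the Polycomb list were those of Pcgf6 (log2 change 0.56 ± 0.14), Yaf2 (0.55 ± 0.08) and Cbx6 (0.52 ± 0.10). Pcgf6 did not pass after median-of-ratios scaling (limma adjusted p = 0.0710), quantile normalization (0.0878) or with the replicate number as a block (0.0512). Yaf2, a PRC1 subunit, had 12.8 and 12.5 FPKM in Cdk8Tg, against 8.54 and 8.15 FPKM in WT.

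The partners of Hdac1 in NuRD and SIN3 had 4 rises among 20 genes tested, among them Sap30 (log2 change 0.49 ± 0.10), Gatad2a (0.48 ± 0.10) and Sin3b (0.48 ± 0.08). Sin3b, a scaffold of the SIN3 corepressor, had 63.8 and 66.3 FPKM in Cdk8Tg, against 46.7 and 45.9 FPKM in WT. Among 17 further methyltransferases, of lysine except for Carm1, 3 rose: Smyd4 (0.62 ± 0.11), Smyd1 (0.53 ± 0.10) and Ehmt2 (0.51 ± 0.11). Carm1, an arginine methyltransferase, did not pass (log2 change 0.04, limma adjusted p = 0.778). Smyd1, which is muscle-specific and needed for sarcomere assembly, had 286 and 276 FPKM in Cdk8Tg, against 206 and 182 FPKM in WT. Sap30, Gatad2a and Ehmt2 did not pass after median-of-ratios scaling (limma adjusted p = 0.0561, 0.0514 and 0.0731) or quantile normalization (0.0616, 0.0593 and 0.0660). Of 14 further BAF subunits only Ss18 rose (0.63 ± 0.10). Without the filter on low values, Yaf2 (limma adjusted p = 0.0438) and Sin3b (0.0403) passed, and the other genes named from these lists as risen had limma adjusted p from 0.0511 to 0.0970.

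Of 7 sirtuins, the NAD-dependent deacylases, Sirt7 rose (log2 change 0.64 ± 0.13) and the mitochondrial Sirt5 fell (-0.44 ± 0.12). Sirt5 had 18.9 and 15.7 FPKM in Cdk8Tg, against 25.045 and 22.5 FPKM in WT. That fall did not pass after scaling to equal FPKM sums (limma adjusted p = 0.112), and the rise of Sirt7 did not pass after quantile normalization (0.0538). Single rises were found for Ruvbl1 (0.40 ± 0.09) among 11 genes of INO80, SRCAP and other remodellers, for Brpf3 (0.39 ± 0.10) among 7 bromodomain readers and for Jmjd1c (0.43 ± 0.10) among 11 further JmjC proteins. None of these 3 passed after median-of-ratios scaling (limma adjusted p = 0.0932 for Ruvbl1, 0.121 for Brpf3 and 0.109 for Jmjd1c) or quantile normalization (0.0854, 0.165 and 0.0967), nor Brpf3 with the block (0.0640). None of 11 KMT2 and COMPASS genes (0 at an unadjusted p under 0.05) and none of 8 genes of DNA methylation (3 at an unadjusted p under 0.05) passed in limma as deposited, and the authors' deposited table marks 0 in both lists. Of the DNA methylation genes, 2 passed as lower after median-of-ratios scaling and 3 after quantile normalization. Of the 19 calls in these lists, 12 were kept without Cdk8Tg 1, 3 (Sin3b, Yaf2 and Smyd1) without Cdk8Tg 2, 1 (Ss18) without WT 1 and none without WT 2 (limma adjusted p of the lost calls from 0.0541 to 0.186).

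The members too low to test were 5. Chd5, Setd4, Smarca5-ps, Prmt8 and Kdm4d had means under 1 FPKM, the highest of them Setd4 at 0.636 and 0.798 FPKM in Cdk8Tg and 0.875 and 0.595 FPKM in WT. Of the others, 46 had a mean of 1 to 10 FPKM, 25 of 10 to 30 FPKM, and 7 of at least 30 FPKM (Setd8, Prmt1, Setd3, Hdac2, Kat2b, Hdac3 and Smarce1). The median of the tested members' means was 8.94 FPKM and that of all tested genes 8.73 FPKM, so the members lay at the level of genes in general. In each of the 4 libraries Setd8 was highest, followed by Prmt1, Setd3 and then Hdac2 or, in Cdk8Tg 2, Kat2b, so Hdac2 and Kat2b did not differ in order beyond the spread of the Cdk8Tg libraries.

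The members also differed in how far their calls depended on single libraries and on the processing. Hdac6 and Chd6 kept their calls in all 14 alternative limma fits. Prmt2 and Chd3 kept theirs in 13, Setd7 in 12 and Kdm3a in 10, and the others in 4 to 9. Of the 17 calls, 9 were kept without Cdk8Tg 1, 6 without Cdk8Tg 2, 4 without WT 1 and 2 without WT 2. Without the filter on low values 6 were kept, and the lost calls had limma adjusted p from 0.0516 to 0.0878. The fits that leave out a library have 1 residual degree of freedom in place of 2, and take the lone library's variance from the other group. Of those calls, the authors' deposited table marks 6 the 17: Hdac6, Prmt2, Chd3, Setd7, Smarca1 and Chd6.

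**Figure D5:**
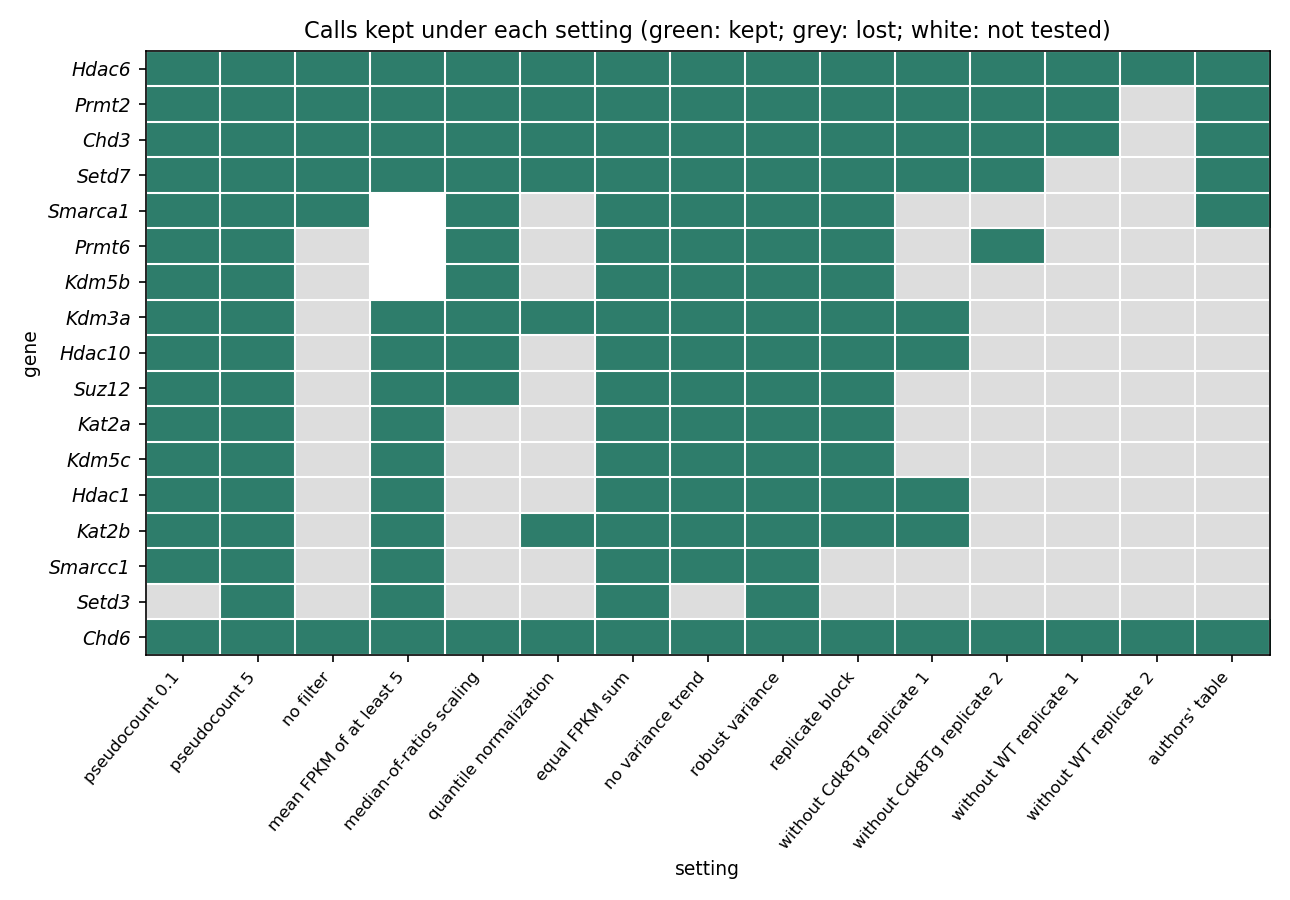
Calls of the 17 members (rows) under 14 alternative limma fits and in the authors' table (columns), green where the call was kept, grey where it was lost and white where the gene was not tested. Hdac6 and Chd6 are green throughout, and most other rows turn grey where a WT library is left out.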

How the data were processed

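Stranded TruSeq libraries were made from polyadenylated RNA of flash-frozen ventricles, per the labels. Per the submitters' processing notes, the authors used TopHat 1.0.0 with mm10, Cufflinks and Cuffdiff. The authors' FPKM table holds 23847 rows (23352 symbols) for 4 libraries, and the sources used here state neither its scaling between libraries nor the annotation or the strand setting of the counting. Per the file headers, the authors' comparison gives a p-value and a q-value per gene, and 12393 genes were tested there.

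From the deposited FPKM, log2(FPKM + 1) was fitted with limma 3.58.1 (R 4.3.3), a trended variance and 2 residual degrees of freedom, over rows with a mean of at least 1 FPKM (11888). Adjusted p-values (Benjamini-Hochberg over all rows) under 0.05 were called. Fold changes on that scale understate changes of low genes. No read counts were used, so low genes rest on an unknown number of fragments. The procedure was run on simulated data with known changes in a small part of the genes. These held no shift between libraries, so the run cannot address the scaling. Groups and replicate numbers come from the sample titles. Nothing says that libraries came from separate animals, so the p-values cover the spread of the libraries alone, which could be technical. Positions and shared stretches of 31 bases come from GENCODE vM21 (GRCm38), and all 83 members were found there, Setd8 as Kmt5a and Prmt10 as Prmt9.

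Members, lists, markers and motifs were chosen with earlier results of these data known. Named were, per family, up to 5 called members by size of change, the most abundant member, and the largest change that was not called, then up to 3 called genes per list of other chromatin genes, the 16 paralog pairs and Cdk8. Eed, Smarcd1, Nppa, Myl4, Myl7, Sln, Csf1r and the brown fat markers were picked with their values in view. So were the neighbouring genes, the untested members and members named in counts of 5 or fewer. The alternatives tried were pseudocounts of 0.1 and 5, none for the paralog ratios (added after seeing the data), no filter, a minimum of 5 FPKM, 3 scalings, other variance models, the replicate number as a block, each library left out, and the authors' calls.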

Additional observations from a re-analysis of the deposited data

How the results depend on the processing

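The number of members called higher, 16, was 5 without a filter, 10 with median-of-ratios scaling, 6 with quantile normalization, 37 with equal FPKM sums, 5 in the authors' deposited table and 1 to 8 with a library left out. The number called lower, 1, was 2 with median-of-ratios scaling and 2 with quantile normalization. For all genes, 2009 higher became 641 without a filter, 946 with median-of-ratios scaling, 1012 with quantile normalization, 4899 with equal FPKM sums, 685 in the authors' deposited table and 145 to 1531 with a library left out, and 949 lower became 414 without a filter and 142 to 849 with a library left out. The members' median log2 change, 0.14, was 0.101 with a pseudocount of 5, 0.000762 with median-of-ratios scaling, 0.0324 with quantile normalization, 0.310 with equal FPKM sums and 0.0005 in the authors' deposited table. With the replicate number as a block, 14 members were higher and 1 lower (all genes 1855 and 970), and Setd3 and Smarcc1 lost their calls. Deviations of same-numbered libraries correlated at -0.0256 across genes. No broad shift shared by same-numbered libraries was thus seen, but this correlation cannot exclude a pairing. Of the named values that were not called, Chd4 turned to -0.0271 and Prmt1 to -0.0331 with median-of-ratios scaling, and to -0.0377 and -0.0468 in the authors' deposited table. Log2 changes from the authors' deposited table are ratios of the authors' own group FPKM, with no pseudocount. Setd8 turned to 0.147 with equal FPKM sums and ranged from -0.165 to 0.0694 with a library left out. The difference in the ratio of Kat2a to Kat2b turned to -0.0367 with a pseudocount of 5. Without a pseudocount, a choice made after seeing the data, the differences of all 16 pairs kept their direction. Scaling and the removal of a library or a filter change the values, the variance or the genes tested by construction, and other causes were not tested.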
